A study of Mus musculus with 42 samples.

Results

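Nodal signalling was followed through its genes in differentiating mouse embryonic stem cells (ESCs). The genes were chosen by their place in the pathway: Nodal, Gdf3, Tdgf1, Acvr2b, Foxh1, Lefty1, Lefty2, Smad7 and Cer1. No measured value served as a cutoff, but earlier results of these data were known when they were chosen. Of these 9 genes, 8 were analysed among the 14296 genes of the series, and Cer1 was not analysed here. The cells were W9.5 ESCs on a 129X1/SvJ background, a single ESC line, with no transgene, knockout or drug named in the labels. Leukaemia inhibitory factor (LIF) was withdrawn at 0 h and the cells formed embryoid bodies, which were harvested every 6 h up to 120 h. Sequencing covered 21 time points with a duplicate at each (replicates A and B), which makes 42 libraries, and each group below is a time point with its 2 libraries. The study describes A and B as replicate time courses, and the p-values measure the spread between their libraries, since how the cultures of each time point were kept apart is not given in the sources used here.

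Nodal is a secreted ligand of the TGF-beta family that patterns the early mammalian embryo. It binds activin receptors of type I and type II together with the co-receptor Cripto, the product of Tdgf1. The receptors phosphorylate Smad2 and Smad3, which join Smad4 and, with partners such as Foxh1, switch on target genes. The targets include Nodal itself and its inhibitors Lefty1 and Lefty2, so the pathway contains a positive and a negative loop. In the embryo it maintains the epiblast and then specifies the primitive streak, from which mesoderm and endoderm arise.

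On the GRCm38 assembly, in the GENCODE vM21 annotation, Nodal (ENSMUSG00000037171.6) lies on the plus strand at chr10:61417972-61425338. Gdf3 (ENSMUSG00000030117.4) lies on the minus strand at chr6:122605403-122610087, and Foxh1 (ENSMUSG00000033837.4) on the minus strand at chr15:76668225-76669948. Tdgf1 (ENSMUSG00000032494.8) is on the minus strand at chr9:110939603-110946158, and Acvr2b (ENSMUSG00000061393.7) on the plus strand of the same chromosome at chr9:119402118-119434995. Lefty2 (ENSMUSG00000066652.5, chr1:180893108-180899103) and Lefty1 (ENSMUSG00000038793.8, chr1:180935022-180938400) are neighbours on the plus strand of chromosome 1. All 8 members are protein-coding genes.

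Lefty1 and Lefty2 are close copies, which matters because their courses below differ. Their coding sequences are each 1107 bases long and identical at 1017 of them, or 91.9%. The longest identical run was 140 bases, longer than a 100-base read. In windows of 100 bases, 4.8% of the Lefty1 transcript and 3.07% of the Lefty2 transcript were shared exactly with the other gene, so that reads from the rest of each transcript can be told apart. The following 120 bases of exon 1, coding bases 46 to 165 of each gene (GRCm38, plus strand), are the stretch within an exon with the most differences, 34 in all, and the differing bases are in capitals. The stretch is chr1:180935155-180935274 in Lefty1 and chr1:180893229-180893348 in Lefty2.
Lefty1: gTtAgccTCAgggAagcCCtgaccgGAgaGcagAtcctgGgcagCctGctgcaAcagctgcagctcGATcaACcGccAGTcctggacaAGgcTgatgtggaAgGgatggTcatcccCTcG
Lefty2: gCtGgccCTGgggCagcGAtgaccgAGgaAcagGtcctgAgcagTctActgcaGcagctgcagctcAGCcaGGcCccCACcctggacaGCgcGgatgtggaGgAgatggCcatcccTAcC

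The promoters of Tdgf1 and Nodal are shown because the co-receptor gene fell at the first time point after LIF withdrawal while the ligand gene was not called there. Each is the 250 bases before the start site in RefSeq (GRCm38.p6), read along the gene's own strand. The Tdgf1 window is chr9:110946159-110946408 on the minus strand and the Nodal window is chr10:61417722-61417971 on the plus strand.
Tdgf1: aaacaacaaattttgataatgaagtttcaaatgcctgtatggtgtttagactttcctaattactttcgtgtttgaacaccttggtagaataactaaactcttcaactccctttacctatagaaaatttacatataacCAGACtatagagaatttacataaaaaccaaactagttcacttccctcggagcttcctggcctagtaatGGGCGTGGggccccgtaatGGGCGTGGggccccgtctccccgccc
Nodal: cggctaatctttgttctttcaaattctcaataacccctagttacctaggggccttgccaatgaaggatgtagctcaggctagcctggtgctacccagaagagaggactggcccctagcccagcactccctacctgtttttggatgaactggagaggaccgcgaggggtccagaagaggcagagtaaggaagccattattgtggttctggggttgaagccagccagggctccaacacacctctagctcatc

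Capitals mark matches, on either strand, to AATCCACA (bound by Foxh1), CAGAC (a Smad-binding element) or GGGCGTGG (a Klf-type GC box, added after the Tdgf1 window had been read). The motifs do not overlap in these windows. The Tdgf1 window held GGGCGTGG 2 times, beginning 45 and 26 bases before the start, and CAGAC 1 time, beginning 113 bases before it. The Nodal window held none of the 3 motifs. Sequence outside these windows and other forms of the motifs were not searched. Any part of the motifs in the courses of the genes was not tested. Among 32851 mouse promoter windows of the same length, AATCCACA was found in 0.718%, CAGAC in 42.2% and GGGCGTGG in 4.79%. Promoter windows were read for 3 of the 8 genes, and that of the third, Acvr2b, held CAGAC on the opposite strand.

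Values are log2 CPM as deposited, that is, the reads counted for a gene scaled to the size of the library. The libraries held a median of 29692082 counted reads (10120972 to 51652434), and the 8 genes were well covered, from at least 98 reads in any library for Acvr2b to 41724 reads for Tdgf1. Pearson's r between duplicates across genes had a median of 0.989 over the time points and was lowest at 96 h (0.959) and 72 h (0.973). At 0 h the cells had high levels of the ESC markers Pou5f1 (mean log2 CPM 9.98) and Nanog (8.89). Replicate B of 96 h stood apart for the 8 genes, and its values are given first.

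**Figure D1:**
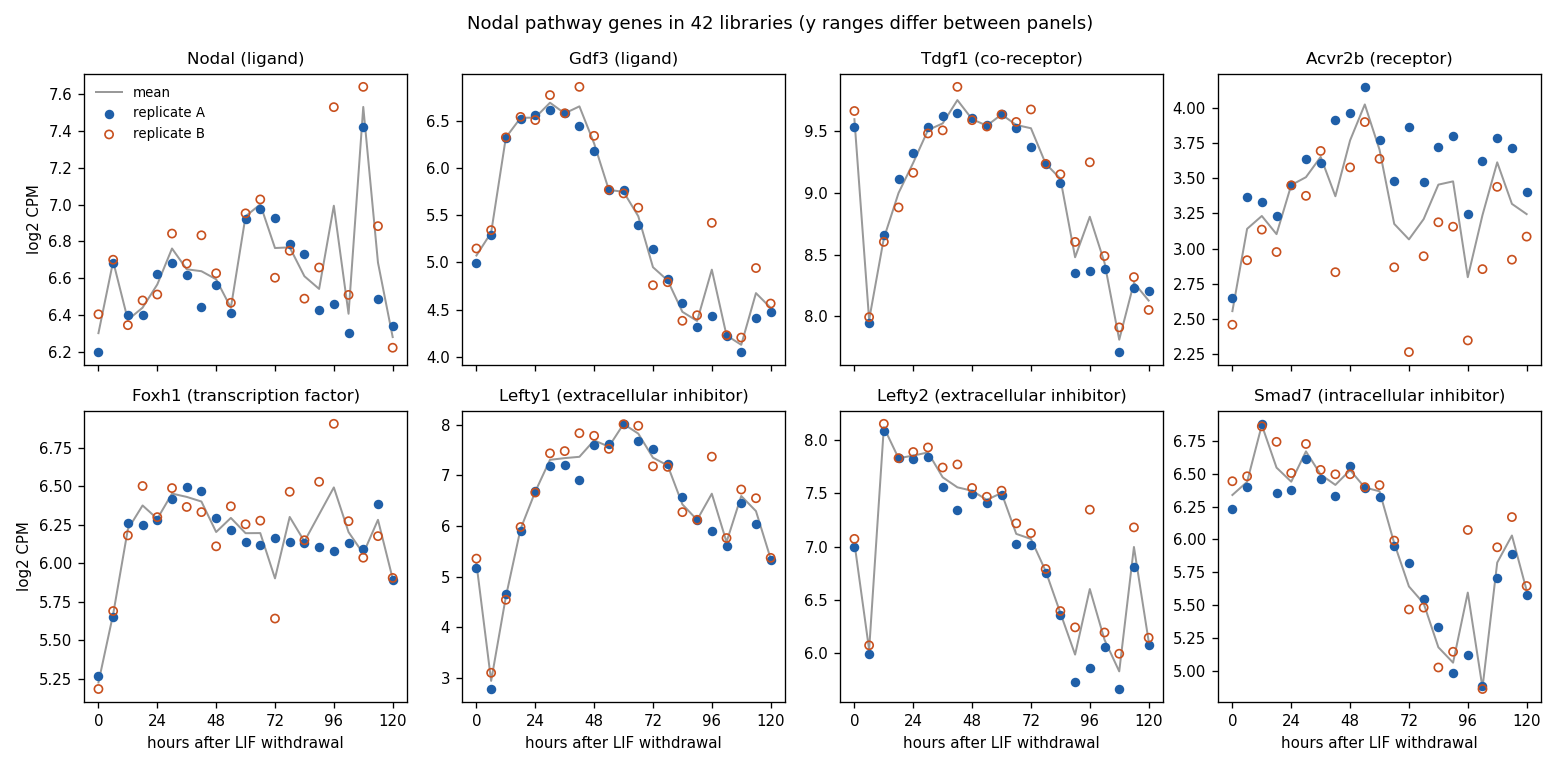
Expression of the 8 Nodal pathway genes in each library, as log2 CPM (y axis, its range set for each gene) against hours after LIF withdrawal (x axis). Filled points are replicate A, open points replicate B and the line is their mean: Lefty1 and Tdgf1 dip at 6 h, Gdf3 falls from 48 h to 72 h, and replicate B of 96 h lies above replicate A in 7 of the 8 panels.

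The 2 libraries of 96 h differed in each of the 8 genes. Replicate B was above replicate A in 7 of the 8 genes, by 1.07 for Nodal (6.46 in A, 7.53 in B), 0.99 for Gdf3 (4.43 and 5.42) and 0.88 for Tdgf1 (8.37 and 9.25). For the inhibitors the gap was 1.47 for Lefty1 (5.91 and 7.37), 1.49 for Lefty2 (5.86 and 7.35) and 0.95 for Smad7 (5.12 and 6.07), and for Foxh1 it was 0.83 (6.08 and 6.91). For Acvr2b replicate B minus replicate A was -0.90 (3.25 and 2.35). In all 8 genes replicate B lay outside the range of the 4 libraries of 90 h and 102 h, whereas replicate A did so in 1, Foxh1. The share of all genes outside that range was not computed. Over all genes the median difference was -0.01. Of all genes 49.3% were higher in replicate B, and 19.1% were higher in it by more than 0.5. Of 25 other genes of the pathway, described below, 16 were higher in replicate B and 9 in replicate A, with a median difference of 0.36.

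Cell type markers also differed between these libraries. Of the genes in these lists, Mixl1, Eomes, Gsc and Foxa2 are also among the 25 pathway genes counted above. All 5 analysed primitive streak genes (T, Mixl1, Eomes, Gsc and Evx1) were higher in replicate B, and their summed level was 103 CPM in A and 480.1 CPM in B, against 71.7 to 129 CPM in the libraries of 90 h and 102 h. The sum was also higher in B for pluripotency genes (6 of 8 genes higher in B, 1224 and 1947 CPM) and visceral endoderm genes (5 of 7, 32.3 and 46.6 CPM). For neuroectoderm genes it was 116 CPM in A and 124 CPM in B, with 1 of 3 genes higher in B. The 4 primed epiblast genes were all lower in B (585 and 400.2 CPM), and of the 4 fibroblast genes 3 were lower (24.8 and 10.8 CPM). No gene of these lists was at 0 reads at 96 h. Their part in the difference was not tested, and in bulk samples fewer cells of a type and less RNA per cell cannot be told apart.

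**Figure D2:**
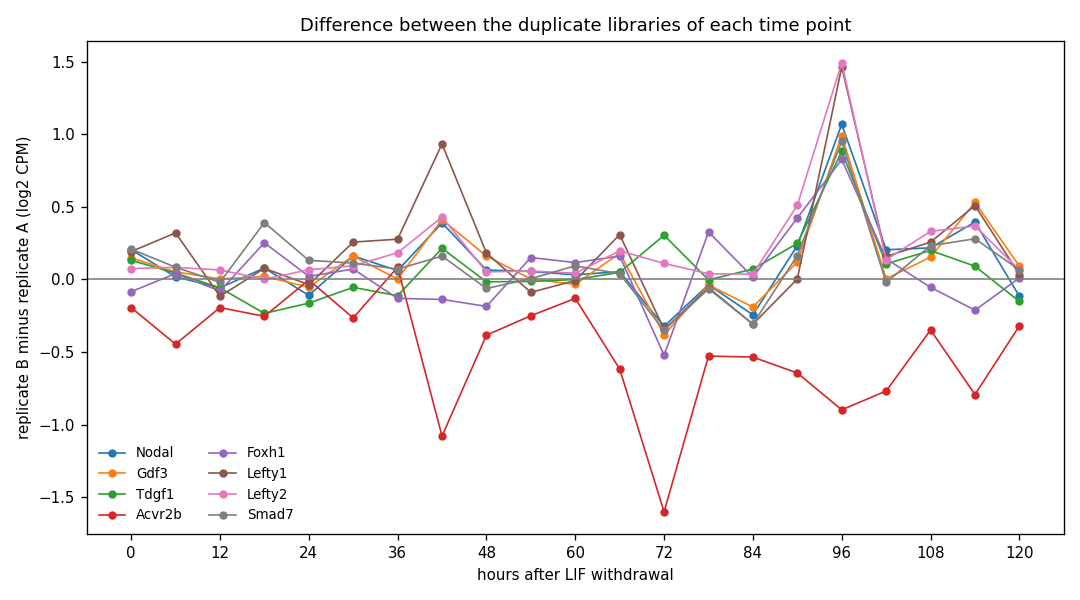
Replicate B minus replicate A in log2 CPM (y axis) at each time point in hours after LIF withdrawal (x axis), with 1 line for each of the 8 genes. At 96 h, 7 genes lie between 0.83 and 1.49, and Acvr2b lies below 0 at 20 of the 21 time points.

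Differences among the 21 time points were tested gene by gene in a single limma fit over all libraries, and a gene was called at a Benjamini-Hochberg adjusted p below 0.0001, the study's threshold. By the F test over the whole course, 6 of the 8 genes were called, against 74.6% of all genes: Gdf3, Tdgf1, Foxh1, Lefty1, Lefty2 and Smad7. Nodal (adjusted p = 0.000382) and Acvr2b (adjusted p = 0.214) were not. Lefty1 spanned 5.08 on the log2 scale between its lowest and highest mean, or 33.9-fold, a span larger than that of 93.5% of all genes. Nodal itself spanned 1.25, a wider span than 39.2% of all genes, and the median over all genes was 1.5.

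In the F test the outcome for Nodal depended on how the 96 h duplicates were treated. The fit without both 96 h libraries, here and below, was chosen after the data had been seen. Leaving out that pair lowers the error of these genes, so its p-values are given as a comparison only. Without replicate A or without replicate B of 96 h, Nodal was called in the F test (adjusted p = 6.77e-08 without replicate A), and in the fit without both it was also called (adjusted p = 4.21e-07). Foxh1 (adjusted p = 5.12e-05) was called in 33 of the 42 fits that left out 1 library each, with the highest adjusted p, 0.00125, without replicate B of 0 h. The other 5 called genes were called in every one of the 42 fits.

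From 0 h to 6 h, 2 of the 8 genes fell and none rose, against 26.3% of all genes called. From 6 h to 24 h, 4 rose and none fell, against 11.4%. From 24 h to 48 h none of the 8 was called, against 8.97%. At an unadjusted p below 0.05 there were 2, against 38.7% of all genes. From 48 h to 72 h 1 gene fell, against 9.38%. From 72 h to 96 h none was called, against 3.39%. There were 3 at an unadjusted p below 0.05, against 40.2% of all genes. From 96 h to 120 h none was called, against 1.94%. There were 5 at an unadjusted p below 0.05, against 31.3% of all genes. From 0 h to 120 h 1 gene fell, against 23% of all genes. The median log2 fold change over the 8 genes was 0.92 from 6 h to 24 h, where the median over all genes was -0.01. It was -0.40 from 48 h to 72 h, against 0.01 over all genes. These comparisons share time points with their neighbours in the chain and are not independent of one another.

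**Figure D3:**
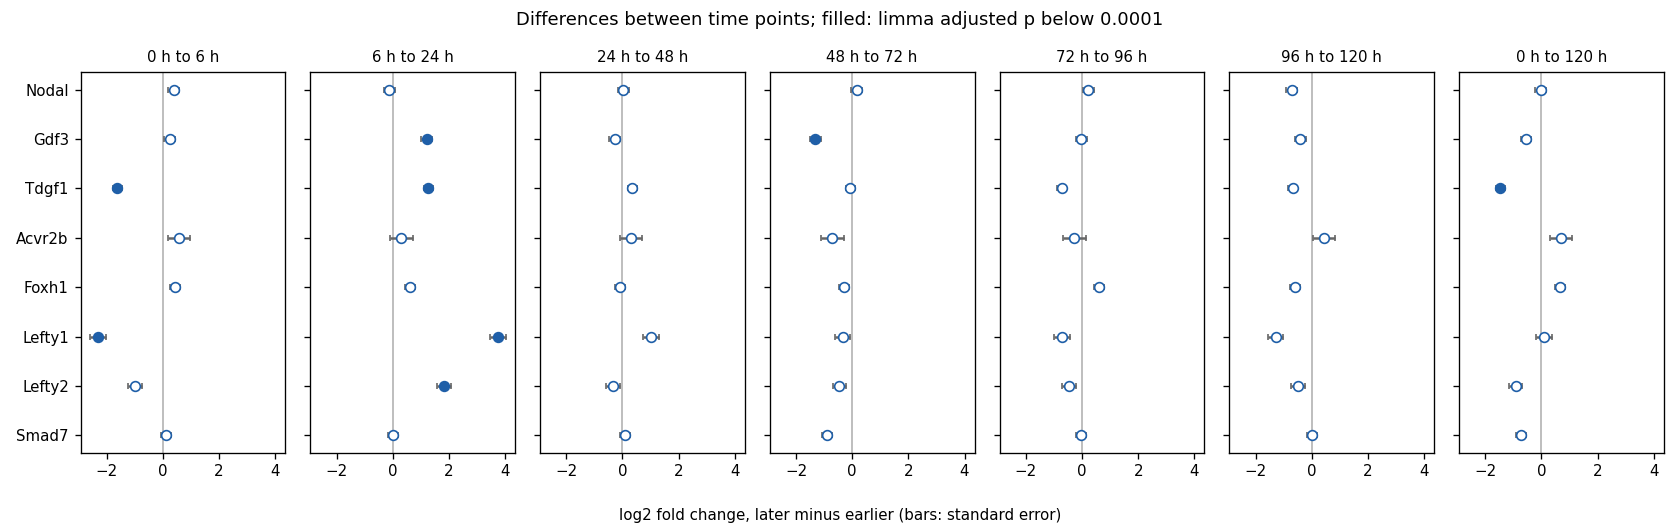
Log2 fold change (x axis, later minus earlier time point) of each of the 8 genes (rows) in 7 comparisons of time points (panels), with bars for the standard error of the limma fit and filled points where the adjusted p was below 0.0001. Tdgf1 and Lefty1 lie left of 0 from 0 h to 6 h and right of it from 6 h to 24 h, where Gdf3 and Lefty2 are also filled.

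Nodal, the ligand that gives the pathway its name, stayed within a narrow band for most of the course. Its log2 CPM was 6.20 in replicate A and 6.4 in replicate B at 0 h, and 6.68 and 6.70 at 6 h. At 48 h it was 6.56 and 6.63, and at 66 h 6.97 and 7.03. Both libraries of 66 h were above both of 0 h. In none of the 7 comparisons was Nodal called, and from 0 h to 120 h its log2 fold change was -0.02 (SE 0.20, adjusted p = 0.938). The highest mean came at 108 h, with 7.42 in replicate A and 7.64 in replicate B. Both libraries of 102 h (6.30 and 6.51) and both of 114 h (6.49 and 6.88) were below both of 108 h. The step from 102 h to 108 h was 1.12 (SE 0.20, adjusted p = 0.000185) and that from 108 h to 114 h was -0.84 (adjusted p = 0.00274), neither past the threshold. In the fit without the 96 h libraries, chosen after the data had been seen, both steps passed it (adjusted p = 6.09e-07 and 2.82e-05). The residual SD of Nodal was 0.21 with the 96 h pair and 0.14 without it.

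Gdf3, a ligand that also signals through the Nodal receptors and Cripto, made a broad early wave. It was 5.0 and 5.15 at 0 h in replicates A and B, and 5.29 and 5.34 at 6 h. By 12 h it was 6.32 in both, and by 24 h 6.56 and 6.51. Both libraries of 24 h were above both of 6 h, and Gdf3 rose by 1.22 between these times (SE 0.19, adjusted p = 1.19e-05, 2.33-fold). That call was lost without any 1 of the 4 libraries, with adjusted p from 0.000271 to 0.000449. The gene then fell by 1.31 from 48 h (6.18 and 6.34) to 72 h (5.14 and 4.76), with SE 0.19 and adjusted p = 5.88e-06. Here the call was lost without replicate A or B of 48 h or replicate B of 72 h, with adjusted p from 0.000102 to 0.000565 and a log2 fold change from -1.39 to -1.12. In the fit without the 96 h libraries the adjusted p was 5.1e-08 for the rise and 2.46e-08 for the fall. At 108 h Gdf3 reached its lowest mean, with 4.05 in replicate A and 4.20 in replicate B.

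Tdgf1, which encodes the co-receptor Cripto, was the most abundant of the 8 genes for nearly the whole course and fell at the first time point after LIF withdrawal. It was 9.53 and 9.66 at 0 h in replicates A and B and 7.95 and 7.99 at 6 h. It fell by 1.62 (SE 0.16, adjusted p = 2.78e-09, 3.08-fold), with a log2 fold change of -1.58 in replicate A and -1.67 in replicate B. Between 6 h and 24 h (9.33 and 9.16) it rose by 1.27 (SE 0.16, adjusted p = 3.85e-07), and from 30 h to 66 h its libraries lay between 9.48 and 9.86. At 120 h it was 8.20 and 8.05. From 0 h to 120 h it fell by 1.47 (SE 0.16, adjusted p = 1.35e-08), and it was the only one of the 8 genes called between the ends of the course with all libraries in the fit. Without the 96 h libraries Lefty2 and Smad7 were called as well. A processed pseudogene, Tdgf1-ps1 on chromosome 16, shares 4.69% of the 100-base windows of the Tdgf1 transcript exactly. How the counting treated reads that match both is not given in the sources used here, so a small part of the level is uncertain.

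Acvr2b encodes a type II receptor that binds Nodal and activin. It had the lowest level of the 8 genes and the widest spread between duplicates. It was 2.65 and 2.46 at 0 h in replicates A and B, 3.45 in both at 24 h, and 4.15 and 3.90 at 54 h, its highest mean. Replicate A was above replicate B at 20 of the 21 time points, by a median of 0.38. At 72 h the libraries stood at 3.87 and 2.27, an SD of 1.13. No difference between time points was detectable beyond this spread in any of the 7 comparisons.

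Foxh1 encodes the forkhead factor that recruits Smad2 and Smad3 to target genes. It was 5.27 and 5.18 at 0 h in replicates A and B, 5.65 and 5.69 at 6 h, and 6.26 and 6.18 at 12 h. All libraries from 12 h onwards except replicate B of 72 h (5.64) lay at or above the 5.89 and 5.90 of 120 h. Its log2 fold change was 0.44 from 0 h to 6 h (adjusted p = 0.0349), 0.62 from 6 h to 24 h (adjusted p = 0.00695) and 0.67 from 0 h to 120 h (adjusted p = 0.00234), none past the threshold. Over the whole course the F test did call it.

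Lefty1, a secreted inhibitor that blocks Nodal and its receptor complex, had the widest course. It was 5.16 and 5.35 at 0 h in replicates A and B and dropped to 2.77 and 3.10 at 6 h. It fell by 2.32 (SE 0.28, adjusted p = 8.52e-08, 5.0-fold). At 12 h it was 4.66 and 4.54, at 24 h 6.70 and 6.66, and at 60 h 8.02 and 8.01, the highest. The 4 libraries of 6 h and 24 h did not overlap, and Lefty1 rose by 3.74 between these times (SE 0.28, adjusted p = 3.18e-11, 13.4-fold). From 24 h to 48 h its log2 fold change was 1.01 (SE 0.28, adjusted p = 0.0065), not past the threshold. At 120 h it was back at 5.34 and 5.37, and its log2 fold change from 0 h was 0.09 (SE 0.28, adjusted p = 0.801).

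Lefty2, the neighbouring copy with the same function, peaked 48 h before Lefty1. It was 7.0 and 7.07 at 0 h in replicates A and B, 5.99 and 6.07 at 6 h, and 8.09 and 8.15 at 12 h, its highest mean. The difference from 0 h to 6 h was -1.0 (SE 0.25, adjusted p = 0.00102), not past the threshold. In the fit without the 96 h libraries, chosen after the data had been seen, it was past it (adjusted p = 6.3e-07). From 6 h to 24 h (7.82 and 7.89) Lefty2 rose by 1.83 (SE 0.25, adjusted p = 1.14e-06, 3.54-fold). After 12 h its values were lower, at 7.48 and 7.52 at 60 h and 5.66 and 5.99 at 108 h. At 114 h it was 6.81 and 7.18, a step of 1.17 from 108 h (SE 0.25, adjusted p = 0.00122), which passed the threshold in the fit without the 96 h libraries (adjusted p = 8.23e-07). At 120 h it was 6.08 and 6.14.

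Smad7 (ENSMUSG00000025880.5, plus strand of chromosome 18) encodes an inhibitory Smad that blocks the receptor inside the cell and is itself induced by the pathway. It was 6.23 and 6.44 at 0 h in replicates A and B and highest at 12 h, with 6.88 and 6.86. From 48 h (6.56 and 6.50) to 72 h (5.82 and 5.47) its log2 fold change was -0.88 (SE 0.18, adjusted p = 0.00034). It was lowest at 102 h, with 4.88 and 4.86, and at 108 h stood at 5.71 and 5.94. This step of 0.95 (SE 0.18, adjusted p = 0.000464) did not pass the threshold. In the fit without the 96 h libraries, chosen after the data had been seen, this step passed it (adjusted p = 3.83e-06). There the difference from 48 h to 72 h (adjusted p = 2.86e-06) and that of -0.72 from 0 h to 120 h (adjusted p = 1.97e-05) passed it too.

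In steps of 6 h, 4 of the 160 pairs of gene and step were called, against 1.77% of such pairs over all genes. They were the falls of Tdgf1 and Lefty1 from 0 h to 6 h, and the rises of Lefty1 by 1.66 (SE 0.28, adjusted p = 6.76e-05) and Lefty2 by 2.09 (SE 0.25, adjusted p = 4.18e-07) from 6 h to 12 h, a step at which 4.35% of all genes were called. The Lefty1 rise was not called without any 1 of its 4 libraries, with adjusted p from 0.000498 to 0.00371, while the Lefty2 rise was called each time. The number of pairs called changed when 1 or both 96 h libraries were left out. The share over all genes in those fits is not given here. In the fit without both 96 h libraries 13 pairs were called over the 18 remaining steps, which included Nodal, Smad7 and Tdgf1 from 102 h to 108 h. At that step Tdgf1 moved the other way from Nodal and Smad7, by -0.62 (SE 0.16, adjusted p = 0.00747 with all libraries). The 102 h to 108 h step had 292 genes called in all and the next had 246, against at most 45 at any other step after 18 h.

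The 96 h pair of libraries set much of the error against which the 8 genes were tested. It held 60.9% of the residual sum of squares of Nodal, 72.6% of that of Lefty2 and between 10.1% (Acvr2b) and 65.4% (Tdgf1) of that of the others, where the median over all genes was 11.7% and an even share would be 4.76%. The residual SD of Lefty2 was 0.27 with the pair and 0.14 without it. The direction of some differences also turned on which library stood for 96 h. From 72 h to 96 h the log2 fold change of Nodal was 0.76 without replicate A and -0.31 without replicate B, that of Gdf3 0.47 and -0.52, and that of Smad7 0.43 and -0.52. In the same order, from 72 h to 96 h it was 1.0 and 0.18 for Foxh1, -0.28 and -1.16 for Tdgf1. It was 0.27 and -1.22 for Lefty2, 0.02 and -1.445 for Lefty1, and -0.72 and 0.18 for Acvr2b. From 96 h to 120 h the log2 fold change of Nodal was -1.25 without replicate A and -0.18 without replicate B. In that order it was -1.12 and -0.24 for Tdgf1, -1.01 and -0.18 for Foxh1, and -2.02 and -0.55 for Lefty1. It was -1.24 and 0.26 for Lefty2, -0.90 and 0.09 for Gdf3, -0.46 and 0.49 for Smad7, and 0.90 and -0.000856 for Acvr2b.

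Compared per kilobase of exon, the order of the 8 genes shifted with time. At 0 h the levels in log2 CPM per kilobase were 8.21 for Tdgf1, 5.65 for Lefty2, 5.24 for Nodal, 4.78 for Foxh1, 4.44 for Lefty1, 4.16 for Smad7, 3.80 for Gdf3 and 0.58 for Acvr2b. At 6 h Lefty1 had dropped to 2.12, below all but Acvr2b (1.17). At 60 h Lefty1 was second at 7.20, behind Tdgf1 at 8.24 and ahead of Lefty2 at 6.12, Nodal at 5.87 and Foxh1 at 5.75. At 108 h Nodal (6.46) and Tdgf1 (6.42) were at the same level within the spread of their duplicates. By this measure it was the only time point at which Tdgf1 was not the highest. That order depends on the length used. Merged exons measured 2622 bases for Tdgf1 and 2095 for Nodal, while the longest coding transcript of Tdgf1 has 1932. In log2 CPM, not divided by length, Tdgf1 was at 7.81 and Nodal at 7.53 at 108 h. In none of the time points was a gene below Acvr2b.

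**Figure D4:**
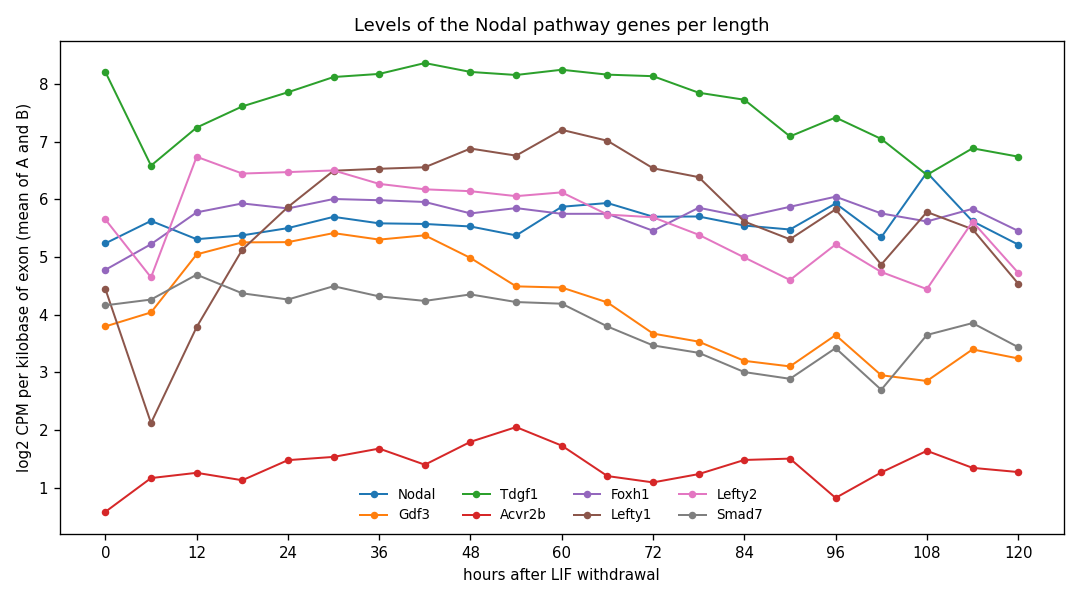
Mean level of the 8 genes in log2 CPM per kilobase of merged exons (y axis) against hours after LIF withdrawal (x axis), each line a gene and each point the mean of replicates A and B. Tdgf1 is highest at every time point but 108 h, where Nodal (6.46) meets it (6.42), and Lefty1 climbs from 2.12 at 6 h to 7.20 at 60 h.

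The courses fell into unlike shapes, described by Pearson's r over the 21 time points in each replicate, with no test since the points share libraries and a trend in time. The closest pair was Gdf3 and Lefty2 (0.90 in A, 0.89 in B), then Gdf3 and Smad7 (0.85 and 0.84). Lefty1 and Lefty2 had 0.37 in A and 0.42 in B. Nodal had its highest r with Lefty1 (0.37 and 0.40) and was near 0 or below with Gdf3, Tdgf1 and Lefty2. Over the 12911 genes with a mean log2 CPM of at least 0, the genes most like each member were ranked by the smaller of the r values in A and B. For Nodal these were Pmepa1 (0.71), Tbc1d9 (0.65) and Emc3 (0.65), lower likeness values than for any other member. Pmepa1, a known target of TGF-beta signalling that inhibits it, shared the Nodal peak at 108 h (5.90 and 6.12, against 5.02 and 5.21 at 102 h) and the gap at 96 h (5.19 in A, 6.26 in B).

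For Gdf3 the nearest genes were Farsa (0.975), Trim28 (0.971) and Wdr18 (0.97). For Tdgf1 the first was its own pseudogene Tdgf1-ps1 (0.931), with which it shares sequence, followed by Mccc2 (0.922) and Ccdc58 (0.917). Lefty1 was nearest to Tmem54 (0.924), Slc16a3 (0.913) and Fgf15 (0.901), and Lefty2 to Smyd5 (0.906), Rasip1 (0.90) and Ahsa1 (0.897). Smad7 was nearest to Ints3 (0.917), Zfp819 (0.914) and Elac2 (0.909). Foxh1 was nearest to Grm6 (0.828), Lmo4 (0.803) and Zfp467 (0.777), and Acvr2b to Btbd7 (0.841), Tnks (0.813) and Ptpn4 (0.805). No gene was among the nearest 3 of more than 1 member.

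Beyond these members, 25 of 28 other genes of the Nodal and activin pathway were analysed (Gdf1, Inhba and Acvr1c were not analysed here). From 0 h to 6 h, 3 rose and 4 fell, 7 of 25 against 26.3% of all genes. Fst, which encodes the activin-binding inhibitor follistatin, was -0.01 and -0.23 at 0 h and 3.74 and 3.58 at 6 h. It rose by 3.78 (SE 0.33, adjusted p = 3.55e-10). The signal transducer Smad2 rose by 1.09 (adjusted p = 5.87e-10) and the receptor gene Acvr2a by 0.85 (adjusted p = 4.05e-05). Fgf8, a signal of the primitive streak, fell by 1.85 (adjusted p = 5.62e-05), to 3 reads in replicate A and 6 in replicate B at 6 h. The Nodal antagonist gene Dand5 fell by 1.84 (adjusted p = 8.69e-06). The signal transducer Smad3 fell by 1.38 (adjusted p = 2.52e-09), and the fourth was the type I receptor gene Acvr1b. Without replicate B of 0 h, 4 of the 25 were called in place of 7. At this step the summed level of the 8 pluripotency genes was 3852 and 4090 CPM at 0 h and 4615 and 4664 CPM at 6 h. Pou5f1, Nanog, Esrrb and Zfp42 (called) were higher at 6 h, and Sox2, Tfcp2l1, Dppa3 and Klf4 (called) were lower. The summed level of the 4 fibroblast genes was 24.4 and 28.1 CPM at 0 h and 12.3 and 12.0 CPM at 6 h. Of these, Col1a1 (called) and Thy1 were lower at 6 h, and Col1a2 and Twist2 were higher. The part of other cells in the changes was not tested.

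From 6 h to 24 h, 4 of the 25 rose and 1 fell, against 11.4% of all genes called. Fgf8 rose by 1.97 (adjusted p = 5.17e-05). Skil, a Smad co-repressor gene that the pathway induces, was 6.19 and 5.86 at 6 h and 7.84 and 7.69 at 24 h, and rose by 1.74 (SE 0.18, adjusted p = 1.18e-08). The ligand gene Gdf11 rose by 1.11 (adjusted p = 2.33e-05). Furin, which encodes a protease that processes the Nodal precursor, fell by 1.30 (adjusted p = 2.24e-05). Leaving out any 1 of the 4 libraries of these times brought the 5 calls to between 1 and 2 calls, the lowest without replicate A of 24 h.

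From 24 h to 48 h, 2 of the 25 rose and 2 fell, against 8.97% of all genes called. Fgf8 rose by 3.02 (adjusted p = 1.08e-07) and Gdf11 by 1.42 (adjusted p = 7.42e-07). Inhbb, which encodes a subunit of activin B, was 6.61 and 6.63 at 24 h and 3.62 and 3.48 at 48 h. It fell by 3.07 (SE 0.29, adjusted p = 2.59e-09), and Pcsk6, a second protease gene for the Nodal precursor, fell by 1.14 (adjusted p = 1.11e-07). From 48 h to 72 h 3 of the 25 were called, against 9.38% of all genes. Gdf11 rose by 1.11 (adjusted p = 2.83e-05), while Inhbb fell by 2.28 (adjusted p = 6.22e-07) and Smad2 fell by 0.61 (adjusted p = 2.2e-05). Without replicate A or without replicate B of 48 h, 1 of the 25 was called. At an unadjusted p below 0.05 there were 15 of the 25 from 72 h to 96 h, against 40.2% of all genes. From 96 h to 120 h there were 12, against 31.3%. None of the 25 was called in either comparison, against 3.39% and 1.94% of all genes. Some of the 25 were called in fits that left out 1 library of 72 h or 96 h. The share over all genes in those fits is not given here.

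Between the ends of the course, 7 of the 25 rose and 3 fell, against 23% of all genes called (1847 rose and 1439 fell), with a median log2 fold change of 0.65 over the 25 and -0.02 over all genes. Fgf8 was -0.52 and -0.17 at 0 h and 5.01 and 4.78 at 120 h, and rose by 5.24 (SE 0.35, adjusted p = 7.45e-13). Fst rose by 4.4 (SE 0.33, adjusted p = 1.17e-11). Foxa2, an endoderm transcription factor gene, had 0 reads in both 0 h libraries and 22 and 15 reads at 120 h. It was at least 5.79-fold higher at 120 h (adjusted p = 5.13e-07), taking 3 reads per library as the floor. Inhbb fell by 5.15 (SE 0.29, adjusted p = 2.03e-14). Pcsk6 fell by 1.55 (adjusted p = 1.19e-10) and Acvr1b fell by 0.80 (adjusted p = 1.42e-06).

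**Figure D5:**
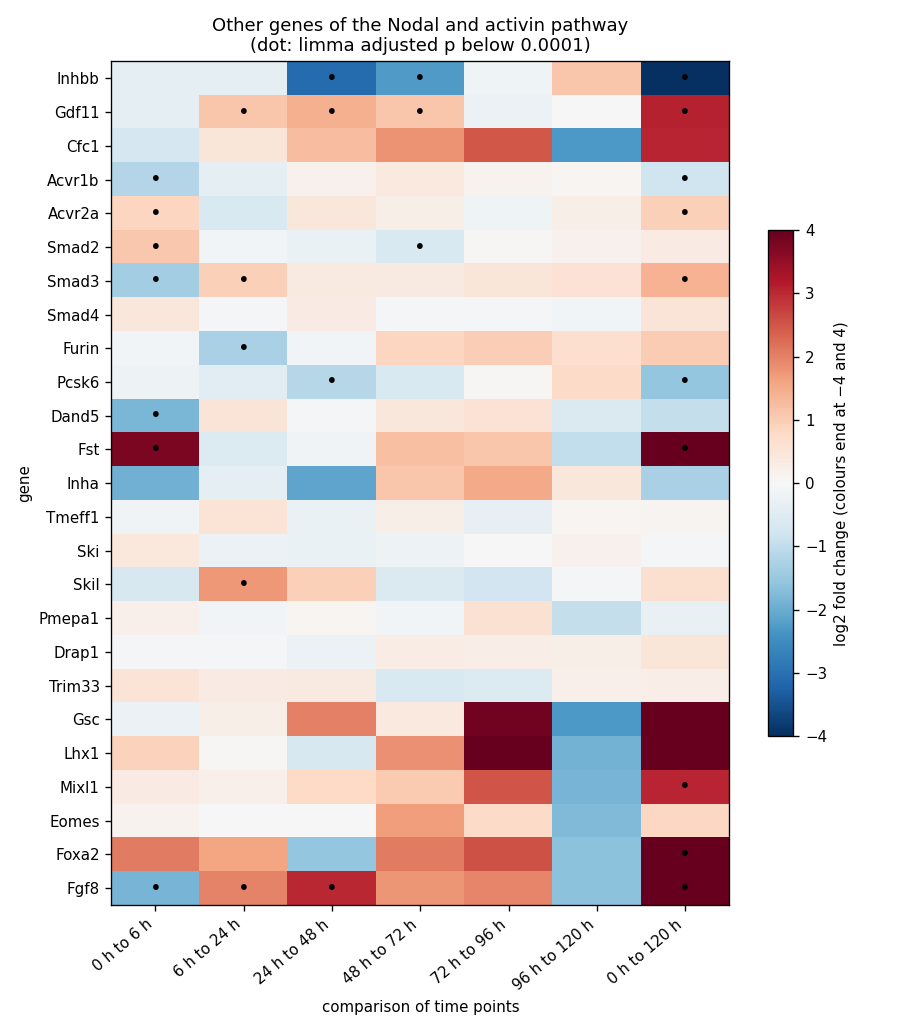
Log2 fold change (colour, later minus earlier) of the 25 other pathway genes (rows) in the 7 comparisons of time points (columns), with a dot where the limma adjusted p was below 0.0001. Inhbb is blue from 24 h to 72 h, Fgf8 turns from blue to red after 6 h, and no dot falls from 72 h to 96 h or from 96 h to 120 h.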

How the data were processed

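Poly-A RNA of W9.5 ESCs was sequenced as stranded, paired-end libraries. After trimming (Trim Galore), the authors mapped reads to mm10 by TopHat2, used HTSeq for counts of GENCODE vM2 genes, and edgeR and voom to scale and transform these. Tool versions are not given in the sources used here. The deposited values are log2 CPM with an offset of 0.5 reads, 1 table of 14296 genes per library. Each value gave a whole number of reads to within 2.91e-08 of a read, which gave depths. A level of 3 reads was 0.0571 to 0.316 CPM, depending on depth.

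Symbols and exon lengths came from GENCODE vM21 (14177 of the 14296 identifiers matched). A factor of 21 time points was fitted with limma 3.58.1 (R 4.3.3; eBayes with a trend) to the deposited values, and p-values were adjusted within each comparison over all genes. Python 3.11.15 and Biopython 1.88 were used for the rest. The fit was tested on simulated data. Time and replicate came from the labels. The members and gene lists were chosen with earlier results of these data known. Genes named were all 8 members, up to 3 called pathway genes with the largest rise and up to 3 with the largest fall in each comparison, and the 3 genes most like each member. A gene of the pathway list is not reported here and is left out of its counts. The marker lists are given by their counts and sums, with streak genes named, and with pluripotency and fibroblast genes named from 0 h to 6 h. The values of Pmepa1 at 96 h, 102 h and 108 h were chosen after they had been seen. Alternatives were the threshold, joint adjustment, no trend, voom weights, other size factors, an offset of 2 reads, a filter on low means, a replicate block and leaving out libraries.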

Additional observations from a re-analysis of the deposited data

How the results depend on the processing

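No called direction was reversed under any alternative run. No trend, other size factors and the filter on low means left every count of members and of the 25 pathway genes within 1.5 times. At an adjusted p below 0.05, the members called were 4 from 0 h to 6 h, 1 from 24 h to 48 h, 2 from 48 h to 72 h, 2 from 72 h to 96 h, 4 from 96 h to 120 h, 5 from 0 h to 120 h and 23 over the 6 h steps, and the pathway genes 13, 9, 10, 14, 14, 10 and 21 in the order of the 7 comparisons. From 72 h to 96 h and from 96 h to 120 h the pathway count of 0 became 1 and 1 with joint adjustment, 1 and 2 with voom weights (which also gave 3 in place of 5 from 6 h to 24 h), and 2 from 72 h to 96 h with an offset of 2 reads.

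With a replicate block, 2 pathway genes were called from 72 h to 96 h and 1 from 96 h to 120 h, every other count stayed within 1.5 times, and the 8 called log2 fold changes of members stayed called. The study describes A and B as replicate time courses, but whether a letter marks a shared culture or batch is not stated. The mean residual correlation of libraries with the same letter was 0.0795, the lowest -0.474, and 68.6% of 210 were positive. Lefty2 was higher in B at every time point and Acvr2b higher in A at 20 of 21.

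Leaving out 1 library gave 0 to 1 members from 48 h to 72 h, 0 to 2 from 72 h to 96 h, 0 to 5 from 96 h to 120 h and 3 to 24 over the steps (24 without replicate A and 13 without replicate B of 96 h). Of the pathway genes it gave 4 to 6 from 0 h to 6 h, 1 to 2 from 6 h to 24 h, 1 to 2 from 48 h to 72 h, 0 to 4 from 72 h to 96 h and 0 to 5 from 96 h to 120 h. Apart from those over the steps, these ranges cover only fits that left out a library of the time points compared. Fits without a library of another time point, such as 96 h, are not in them. The share of all genes called in fits without 1 library is not given here. A lone library left at a time point is assumed to vary like the others.

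2 fits were chosen after seeing the data. Without replicate B at 72 h and 96 h, 1 member was called from 72 h to 96 h, 4 from 0 h to 120 h and 13 over the steps, and 2 pathway genes from 96 h to 120 h. Without both 96 h libraries, 2 members and 5 pathway genes were called from 48 h to 72 h and 3 members from 0 h to 120 h. Each time point had 2 libraries, and the lowest count of a member was 98 reads, in Acvr2b.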
